A study of Mus musculus with 12 samples.

Results

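The collagens and the enzymes that modify, fold, trim and cross-link them were followed in mouse embryonic fibroblasts on 12 microarrays. The rule for members reads gene symbols and no measured value. It takes every symbol of a collagen chain, the lysyl hydroxylases Plod1 to Plod3 and the prolyl 4-hydroxylase subunits P4ha1 to P4ha3. It also takes the prolyl 3-hydroxylase family with Crtap, the chaperone Serpinh1, and the propeptide proteins Bmp1, Pcolce and Pcolce2. The lysyl oxidases Lox and Loxl1 to Loxl4 complete it, but Loxl2 had no probe set with a single symbol. The rule found 61 of the 18193 genes that the array platform gives a single symbol. Of these, 11 are fibrillar collagens, 8 are basement membrane collagens, 23 are other collagens and 19 are processing genes. The 61 genes carried 113 probe sets, and each gene is described by its brightest probe set, judged by the average log2 intensity of all 12 arrays, unless another is named.

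All cells were TSC2-/- fibroblasts, which lack the tuberin brake on the growth kinase complex mTORC1, grown in DMEM with CCS. Rapamycin, an inhibitor of mTORC1, was given at 20 nM for 14 hours, and its vehicle DMSO was given for the same time. In the other experiment, confluent TSC2-/- fibroblasts were infected for 10 hours with an adenovirus carrying PGC-1alpha, a transcriptional coactivator known for mitochondrial genes, or with one carrying GFP. These cells were harvested 14 hours after a change of medium. Each of the 4 groups had 3 arrays that the design text calls biological triplicates. Every group carried the Tsc2 deletion, no Tsc2-positive cells were analysed here, and the labels do not say how many fibroblast lines were used. PGC-1alpha came from a virus, so its effect is that of an added gene.

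Collagen chains are made in the endoplasmic reticulum, where prolyl and lysyl residues are hydroxylated, chains join in threes with the help of the chaperone Serpinh1, and the finished procollagen leaves the cell. Outside it, propeptides are cut off and lysyl oxidases cross-link the molecules. Fibrillar collagens give connective tissue its tensile strength, type IV collagen forms the sheet of the basement membrane, and type VI collagen forms beaded filaments. Fibroblasts are the main collagen-making cells of connective tissue.

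After the authors' normalization with RMA the arrays had median intensities between 77.5 and 81.0, where an intensity is the deposited brightness of a probe set on a linear scale. That processing levels the arrays of a batch, so these medians do not show how alike the RNA samples were. Of 8 fibroblast marker genes, 4 were raised with rapamycin, where 11.3% of all genes were, and 4 had changes below 0 that were not called. Among the latter, Thy1 (-0.20) and Twist1 (-0.17) had every rapamycin array below every vehicle array. The 8 together summed to 14440 to 15350 on rapamycin arrays and to 13560 to 13740 on vehicle arrays. The 5 smooth muscle markers summed to 19040 to 19680 with rapamycin and 16640 to 16970 with vehicle, with Acta2 and Tagln raised and Des lowered. The 5 epithelial markers summed to 1490 to 1546 with rapamycin and 1233 to 1301 with vehicle, with Krt18 and Cdh1 raised. No chondrocyte, osteoblast, endothelial or leukocyte marker was called, and their sums overlapped between rapamycin and vehicle arrays. The part of these marker shifts in the collagen results was not tested. In RNA from whole cultures, fewer cells of a type and less RNA per cell cannot be told apart.

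Of the 42 collagens, 8 were raised with rapamycin, 1 was lowered and 33 were not called, and of the 19 processing genes 3 were raised and 5 were lowered. Against vehicle, 11 members were raised and 6 were lowered, where a call is a limma adjusted p under 0.05 over all 45037 non-control probe sets. Over all genes 11.3% were raised and 18% were lowered, and among the members 18% were raised and 9.84% were lowered. The median log2 change was 0.04 over the members and -0.01 over all genes, with 41 members above 0 and 20 below it. A change of at least 0.5 on the log2 scale was reached by 5 of the 17 called members, namely Col11a1, Col4a5, P4ha1, P4ha2 and Pcolce2. The 3 rapamycin arrays lay all above the 3 vehicle arrays in 20 members, where 17.5% of all genes did so, and all below them in 7, where 24.6% of all genes did so. Of the 61 members, 49 had a mean log2 value of at least 6 on these 6 arrays, and no member under that level was called.

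The balance of raised and lowered genes turned over with the scaling. The spike controls BioB, BioC, BioDn and CreX are RNAs added to the hybridization mix of each array. They do not measure how much RNA the cells held. Their mean log2 values were 10.63 to 10.83 on rapamycin arrays, against 10.50 to 10.60 on vehicle arrays. With each array scaled on these controls the median change of all probe sets was -0.19, and 5 members were raised and 18 were lowered. The collagens then had 4 raised and 10 lowered, Col1a1 among the lowered ones, and the processing genes had 1 raised and 8 lowered. The 5 still raised under that scaling were Col11a1, Col4a5, Col6a2, Col8a1 and P4ha3, and all 6 lowered members stayed lowered. The share of all genes called under that scaling was not counted, so these counts have no background to be set against.

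**Figure D1:**
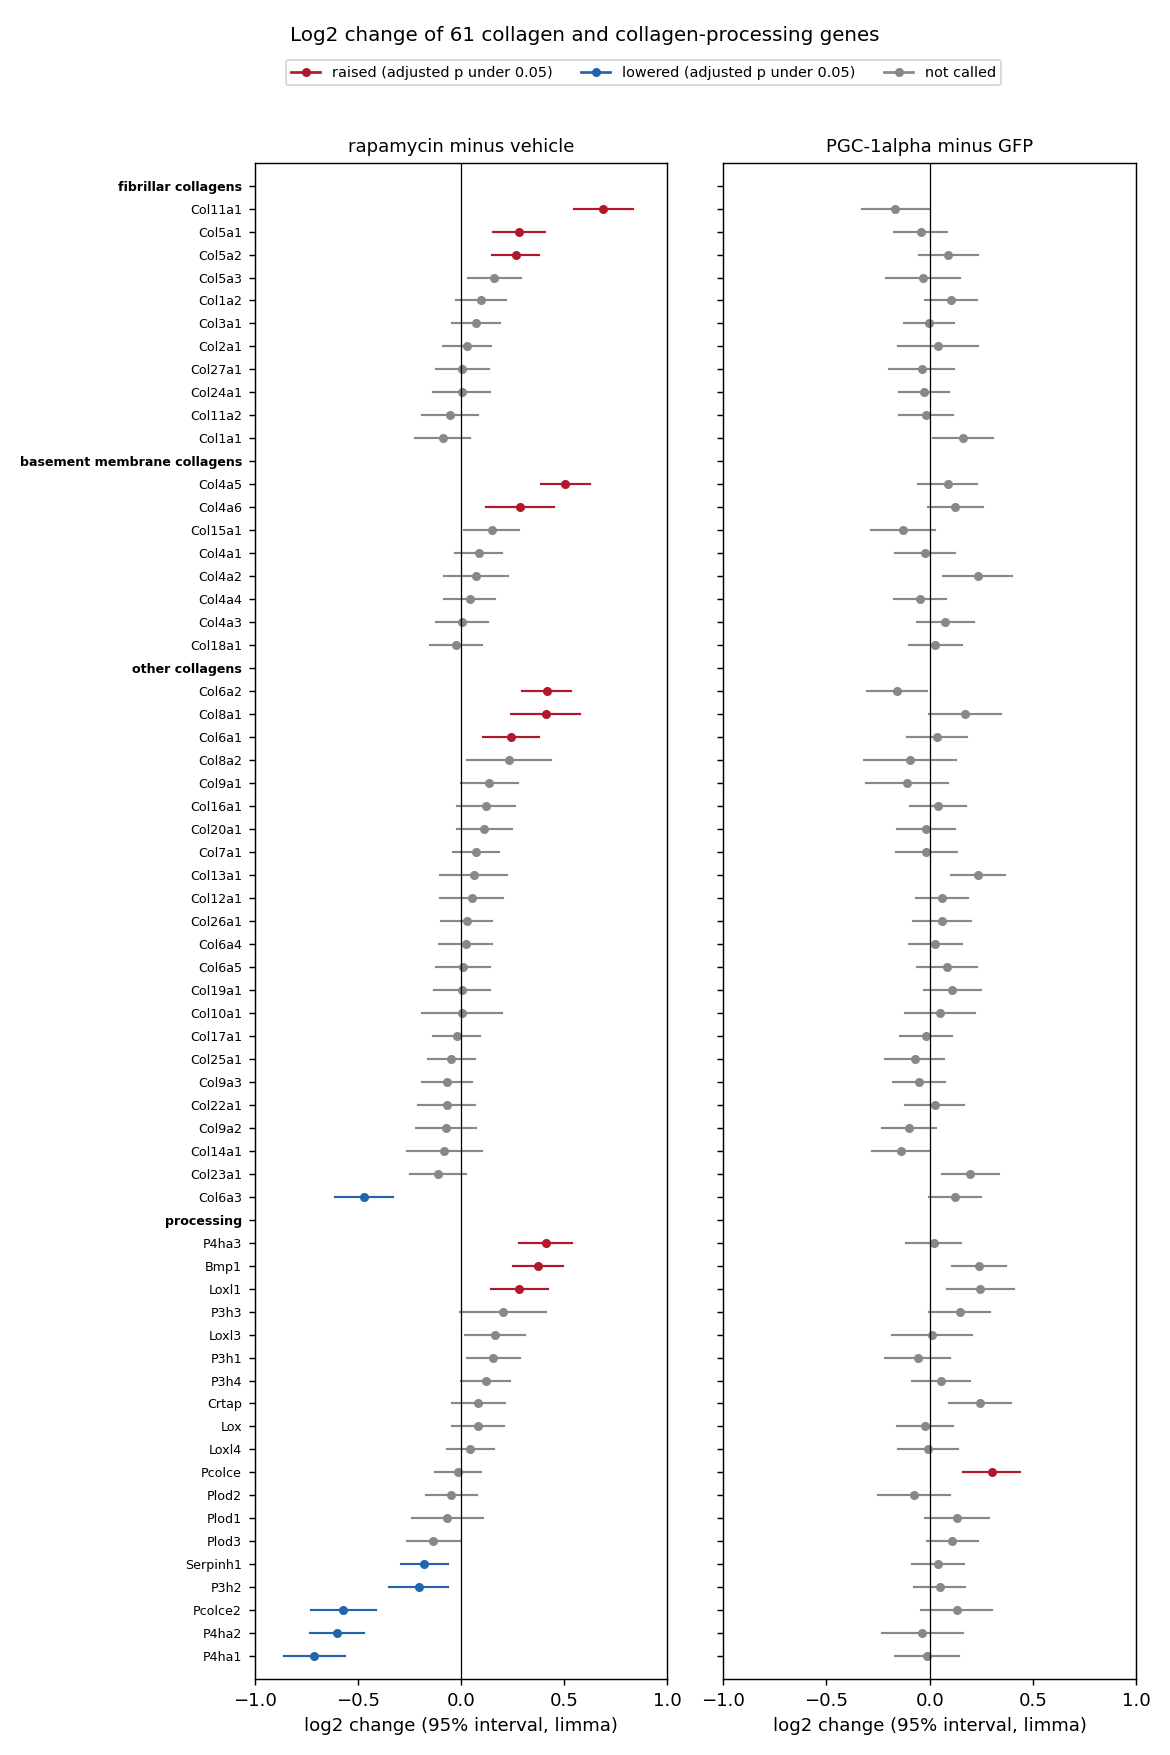
Log2 change of each of the 61 members with its 95% limma interval, for rapamycin minus vehicle on the left and PGC-1alpha minus GFP on the right, by class. On the left 11 members lie to the right of 0 and 6 to the left past the threshold; on the right Pcolce alone passes it.

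Among the fibrillar collagens, Col11a1, Col5a1 and Col5a2 were raised with rapamycin, while the minor chains Col5a3 and Col11a2 and the main chains of types I and III did not pass the test. Of 11 genes, 3 were raised (27.3%, against 11.3% of all genes) and none was lowered, with a median log2 change of 0.07. Col11a1, a chain of type XI collagen that helps set fibril width, had intensities of 873, 941 and 842 on rapamycin arrays, against 523, 594 and 529 on vehicle arrays. Every rapamycin array lay above every vehicle array. Its log2 change was 0.69 (SE 0.07), or 1.61-fold, with a limma adjusted p of 5.92e-06, and a second Col11a1 probe set changed by 0.68.

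Col5a1 and Col5a2 encode the chains of type V collagen, which starts the assembly of type I fibrils. Col5a2 had intensities of 7741, 8233 and 7813 with rapamycin, against 6632, 6655 and 6503 with vehicle. The groups did not overlap, and the log2 change was 0.26 (SE 0.05, limma adjusted p 0.00203). A second, dimmer Col5a2 probe set rose by 0.64. Col5a1 had 2305, 2434 and 2350 with rapamycin, against 1995, 2016 and 1822 with vehicle, again without overlap, a log2 change of 0.28 (SE 0.06, limma adjusted p 0.00245). The Col5a1 result rests on that probe set: another was lowered, with a change of -0.24 (limma adjusted p 0.0108), and the last had a change of -0.18 (limma adjusted p 0.0611). It was the only member whose probe sets were called in opposite directions. With spike scaling neither gene was called (limma adjusted p 0.338 for Col5a1 and 0.431 for Col5a2). Col5a3, the remaining type V chain, had 97.69, 102.7 and 94.96 with rapamycin and 93.5, 84.6 and 86.1 with vehicle, a change of 0.16 that missed the threshold (limma adjusted p 0.0639).

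The chains of the most abundant skin and bone collagens gave bright signals that differed little. Col1a1, the main chain of type I collagen, had 11421, 12660 and 10915 with rapamycin, against 12215, 12359 and 12566 with vehicle. The rapamycin arrays spread around the vehicle arrays, and the log2 change was -0.09 (SE 0.06, limma adjusted p 0.361) with a 95% interval from -0.22 to 0.05. Its partner chain Col1a2 had 9370, 9903 and 9100 with rapamycin, against 8633, 8766 and 9142 with vehicle, an overlapping pair of groups with a change of 0.10 (SE 0.06, limma adjusted p 0.26). A dim further Col1a2 probe set was raised by 0.42. Col3a1, the chain of type III collagen, had 10675, 11100 and 10604 with rapamycin, against 9999, 10185 and 10583 with vehicle. Its groups were just separate, with a change of 0.07 (SE 0.05, limma adjusted p 0.38), and a second probe set was raised by 0.20 (limma adjusted p 0.0217). The other fibrillar genes, among them the cartilage chains Col2a1 and Col11a2, had changes between -0.05 and 0.03.

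**Figure D2:**
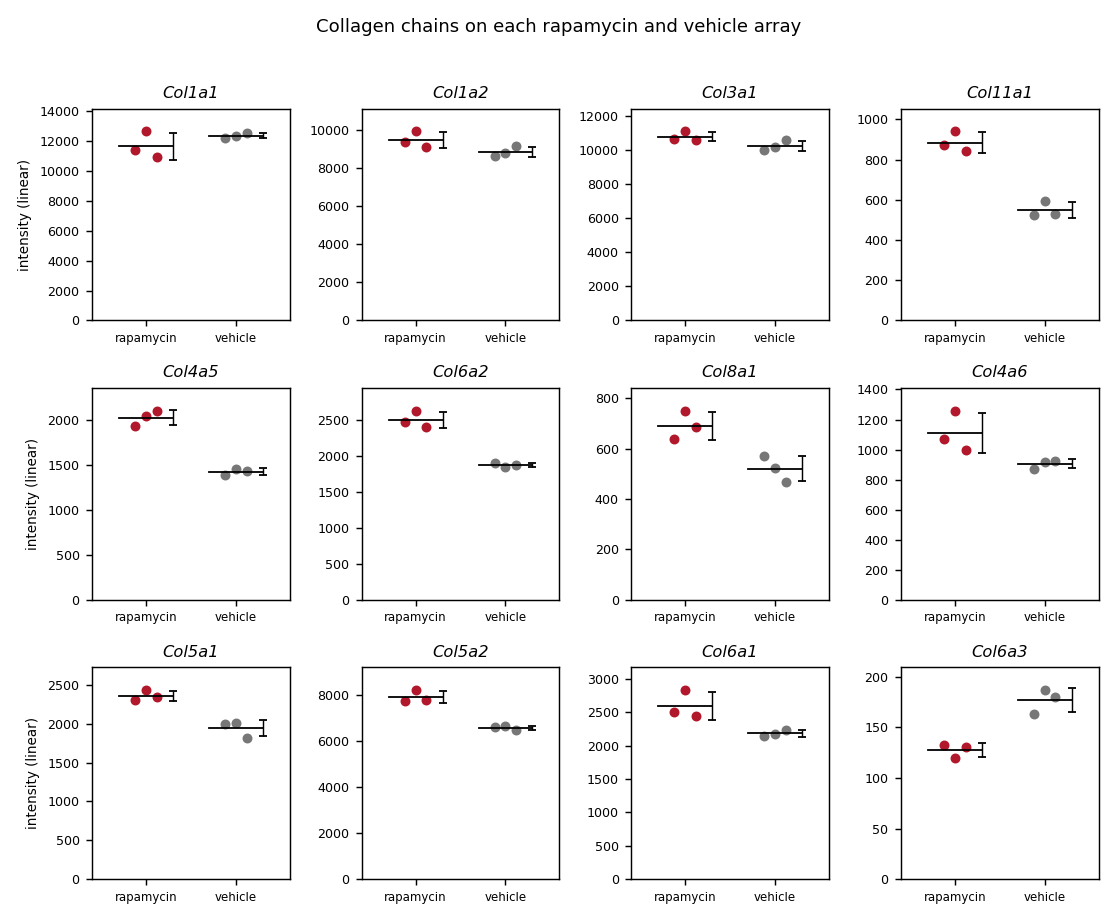
Intensity of 12 collagen genes on each rapamycin array (left in each panel) and vehicle array (right), on linear axes from 0; lines are means and bars are SD of 3 arrays. Col11a1, Col4a5 and Col6a2 show separate groups with rapamycin above, Col6a3 shows rapamycin below, and Col1a1 shows overlapping groups.

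In the basement membrane set, the paired genes Col4a5 and Col4a6 were raised and the more widely made chains of type IV collagen did not pass the test. Of 8 genes 2 were raised (25%, against 11.3% of all genes) and none was lowered, with a median log2 change of 0.08. The chains of Col4a5 and Col4a6 assemble together in the basement membranes of smooth muscle and of Bowman's capsule. In the RefSeq annotation these genes are neighbours on the X chromosome, on opposite strands, with annotated starts 1343 bases apart. The 250 bases before each start are shown because the 2 genes share this interval and moved together. They are from RefSeq, build GRCm38.p6, 5′ to 3′ on the gene's own strand, with the letters GGGCGG or their reverse complement CCGCCC in capitals. Col4a5 is at chrX:141475169-141475418 on the plus strand, and Col4a6 at chrX:141474077-141474326 on the minus strand.
Col4a5: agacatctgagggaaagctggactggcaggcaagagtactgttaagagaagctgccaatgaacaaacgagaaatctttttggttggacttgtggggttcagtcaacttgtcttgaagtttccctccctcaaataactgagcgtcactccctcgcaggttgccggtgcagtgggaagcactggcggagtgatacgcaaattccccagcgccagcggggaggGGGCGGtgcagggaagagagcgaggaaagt
Col4a6: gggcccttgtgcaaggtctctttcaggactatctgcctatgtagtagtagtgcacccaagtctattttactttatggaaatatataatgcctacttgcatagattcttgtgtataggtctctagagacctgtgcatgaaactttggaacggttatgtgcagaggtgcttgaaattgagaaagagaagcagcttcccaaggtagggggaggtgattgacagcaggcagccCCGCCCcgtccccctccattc

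The capitals begin 30 bases before the Col4a5 start and 21 bases before the Col4a6 start. The same letters, on either strand, were found in 32.7% of 32851 such windows of all genes, and in 29 of the 45 members that have a window in the table. All genes were counted per window, but members per gene, where a gene with several windows counts if any of them matches. The shares are therefore not in the same unit.

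Col4a5 had intensities of 1937, 2047 and 2105 with rapamycin, against 1391, 1462 and 1434 with vehicle. The groups lay well apart, the log2 change was 0.51 (SE 0.06), or 1.42-fold, and the limma adjusted p was 1.79e-05. A second Col4a5 probe set rose by 0.41. Col4a6 had 1071, 1258 and 999 with rapamycin, against 874, 918 and 926 with vehicle, without overlap. Its change was 0.29 (SE 0.08, limma adjusted p 0.0132), a second probe set rose by 0.28, and the first was no longer called without vehicle replicate 1 (limma adjusted p 0.0566).

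Col4a1 and Col4a2 encode the type IV chains of nearly all basement membranes and are also neighbours with starts on opposite strands, 21 bases apart. Col4a1 had 3087, 3259 and 3081 with rapamycin, against 2964, 2999 and 2915 with vehicle. All rapamycin arrays were higher, but by little, with a log2 change of 0.09 (SE 0.05, limma adjusted p 0.288), while a second probe set was raised by 0.28 (limma adjusted p 0.00533). Col4a2 had 1077, 1189 and 984 with rapamycin, against 1073, 1046 and 967 with vehicle, overlapping groups with a change of 0.07 (SE 0.07, limma adjusted p 0.549). The multiplexin genes Col15a1 and Col18a1, whose products sit at the edge of basement membranes, had changes of 0.15 and -0.02 and were not called. Col4a3 and Col4a4 were both under a mean log2 value of 6.

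Among the other 23 collagens, chains of types VI and VIII accounted for all 4 calls. Of these genes 13% were raised and 4.35% were lowered, where 11.3% and 18% of all genes were. Type VI collagen forms beaded filaments next to the cell surface from 3 unlike chains, and its chains went in opposite directions. Col6a2 had 2470, 2625 and 2404 with rapamycin, against 1899, 1842 and 1877 with vehicle. The groups were clearly apart, with a log2 change of 0.42 (SE 0.05), or 1.33-fold, and a limma adjusted p of 8.31e-05. Col6a1, its neighbour on chromosome 10, had 2499, 2830 and 2441 with rapamycin, against 2141, 2172 and 2239 with vehicle, without overlap and with a change of 0.24 (SE 0.06, limma adjusted p 0.0117).

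Col6a3, the largest of the 3 classical type VI chains, had 132, 120 and 131 with rapamycin, against 163, 187 and 180 with vehicle. Every rapamycin array was lower, and the log2 change was -0.47 (SE 0.06, limma adjusted p 0.000116). It was the only collagen lowered, and it has a single probe set. The later-described chains Col6a4 and Col6a5 had changes of 0.02 and 0.01 and were not called.

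Col8a1, a short-chain network collagen of vessel walls and the cornea, had 640, 751 and 684 with rapamycin, against 570, 524 and 469 with vehicle. The groups did not overlap, the change was 0.41 (SE 0.08, limma adjusted p 0.00132), and all 3 of its probe sets were raised. Its partner Col8a2 had a change of 0.23 (limma adjusted p 0.0913). None of the 9 fibril-associated collagens, which sit on the surface of fibrils, and none of the 4 transmembrane collagens was called. The smallest p among the fibril-associated genes was that of Col9a1, with 133, 116 and 126 with rapamycin, against 119, 110 and 112 with vehicle, and a change of 0.14 (SE 0.06, limma adjusted p 0.143). Col16a1 followed with 264, 310 and 275 with rapamycin, against 264, 252 and 262 with vehicle (change 0.12, SE 0.06, limma adjusted p 0.214). Both pairs of groups overlapped. The transmembrane gene Col23a1 had 58.0, 54.0 and 58.2 with rapamycin, against 61.7, 65.5 and 57.1 with vehicle, overlapping groups with a change of -0.11 (SE 0.06, limma adjusted p 0.231). Col25a1, of the same class, had 157, 158 and 163 with rapamycin, against 160, 168 and 166 with vehicle (change -0.05, SE 0.05, limma adjusted p 0.6), overlapping too.

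**Figure D3:**
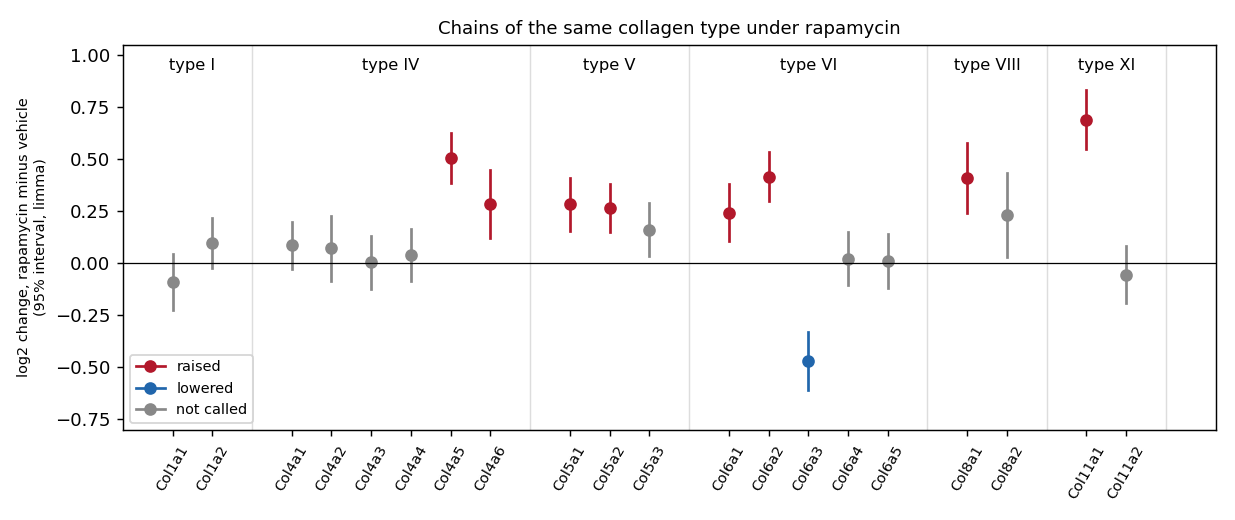
Log2 change, rapamycin minus vehicle, with 95% limma interval for chains of the same collagen type. Within type IV Col4a5 and Col4a6 are raised, and within type VI Col6a1 and Col6a2 are raised while Col6a3 is lowered.

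The hydroxylases carried the largest decreases of the whole set. Of 11 genes 1 was raised (9.09%) and 3 were lowered (27.3%), with a median log2 change of -0.05. Over all genes 11.3% were raised and 18% were lowered. P4ha1, P4ha2 and P4ha3 encode alternative catalytic subunits of prolyl 4-hydroxylase, the enzyme whose product, hydroxyproline, keeps the collagen helix stable at body temperature. The first pair fell and P4ha3 rose. The 250 bases before their annotated starts are shown to set the 3 genes side by side, all on the plus strand, from RefSeq build GRCm38.p6, 5′ to 3′. Capitals mark ACGTG or its reverse complement CACGT, letters at the core of the element bound by hypoxia-inducible factors. P4ha1 is at chr10:59323046-59323295, P4ha2 at chr11:54100674-54100923 and P4ha3 at chr7:100285270-100285519.
P4ha1: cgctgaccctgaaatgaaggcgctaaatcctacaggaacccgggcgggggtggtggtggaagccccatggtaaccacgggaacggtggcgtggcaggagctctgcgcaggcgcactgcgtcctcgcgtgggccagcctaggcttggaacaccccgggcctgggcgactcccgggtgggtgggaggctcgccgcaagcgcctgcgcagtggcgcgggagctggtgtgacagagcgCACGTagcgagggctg
P4ha2: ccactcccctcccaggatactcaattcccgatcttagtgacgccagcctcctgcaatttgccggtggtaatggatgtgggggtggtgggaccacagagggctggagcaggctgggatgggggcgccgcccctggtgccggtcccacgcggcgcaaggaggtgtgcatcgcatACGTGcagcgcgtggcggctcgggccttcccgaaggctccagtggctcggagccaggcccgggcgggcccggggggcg
P4ha3: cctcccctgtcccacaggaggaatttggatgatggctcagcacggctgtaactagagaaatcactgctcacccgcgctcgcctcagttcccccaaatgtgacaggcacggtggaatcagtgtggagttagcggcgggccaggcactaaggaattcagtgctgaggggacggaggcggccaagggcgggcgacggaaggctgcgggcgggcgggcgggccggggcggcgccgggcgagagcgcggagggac

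The letters begin 16 bases before the P4ha1 start and 78 bases before the P4ha2 start, and they are not in the P4ha3 window. They were found in 16.6% of 32851 windows of all genes and in 9 of the 45 members with a window, the members again counted per gene. Among the members with them were also Serpinh1, which was lowered, Col5a1, which was raised on its brightest probe set, and Col1a2, which was not called. The windows of Col6a3 and Pcolce2, both lowered, did not hold them. A match is a run of letters and not a measured binding site, and a link between these letters and the changes was not tested. The letters CCAAT, searched on both strands too, were in 33.8% of all windows and, per gene, in 15 of the 45 members.

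P4ha1 had intensities of 701, 800 and 660 on rapamycin arrays, against 1173, 1173 and 1182 on vehicle arrays. The groups were far apart, and the log2 change was -0.71 (SE 0.07), which is 1.64-fold lower, with a limma adjusted p of 6.2e-06. Its second probe set changed by -0.72. P4ha2 had 751, 851 and 768 with rapamycin, against 1193, 1170 and 1228 with vehicle. Here too no rapamycin array reached the vehicle arrays, with a change of -0.60 (SE 0.06), or 1.52-fold lower, and a limma adjusted p of 8.67e-06.

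P4ha3 ran the other way, with 83.4, 90.8 and 81.3 on rapamycin arrays, against 64.5, 65.9 and 61.5 on vehicle arrays. The groups did not overlap, and the change was 0.41 (SE 0.06, limma adjusted p 0.000168). P4ha3 has a single probe set, as P4ha2 does, and it was dim. Its mean log2 value was 6.20 on the rapamycin and vehicle arrays, close to the low-value level of 6, and 5.75 on the PGC-1alpha and GFP arrays. P3h2, which hydroxylates prolines mainly in basement membrane collagen, had 82.9, 89.6 and 96.9 with rapamycin, against 97.5, 107 and 105 with vehicle. The highest rapamycin array nearly met the lowest vehicle array, and the change was -0.21 (SE 0.07, limma adjusted p 0.0371). The P3h2 call was lost in 4 of the 6 fits that left out an array (limma adjusted p 0.0702 to 0.15), those without rapamycin replicate 1 or 2 or vehicle replicate 2 or 3.

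The prolyl 3-hydroxylase P3h1 and its partner Crtap modify type I procollagen as a complex. Their changes were 0.16 (limma adjusted p 0.0737) and 0.08, and neither gene was called. A second P3h1 probe set was raised by 0.24 (limma adjusted p 0.0222). The lysyl hydroxylases, which prepare lysines for cross-links and sugars, had changes of -0.07 for Plod1, -0.05 for Plod2 and -0.13 for Plod3. None was called, but a second Plod2 probe set was lowered, with a log2 change of -0.24 (limma adjusted p 0.0143).

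Among the chaperone and propeptide genes, Pcolce2 and Serpinh1 were lowered and Bmp1 was raised. Bmp1, the protease that removes the carboxyl propeptide of fibrillar procollagens, had 674, 732 and 675 with rapamycin, against 519, 540 and 547 with vehicle. The groups were apart, the change was 0.37 (SE 0.06, limma adjusted p 0.000241), and 2 of its 3 probe sets were raised. Pcolce2, an enhancer of that cleavage, had 118, 139 and 130 with rapamycin, against 200, 199 and 176 with vehicle. All rapamycin arrays were lower, with a change of -0.57 (SE 0.07), or 1.48-fold lower, and a limma adjusted p of 5.84e-05.

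The related enhancer Pcolce had 3740, 3622 and 3676 with rapamycin, against 3740, 3652 and 3743 with vehicle, overlapping groups with a change of -0.01 (SE 0.05, limma adjusted p 0.902). A second, dimmer Pcolce probe set was lowered, with a log2 change of -0.30 (limma adjusted p 0.00491). Serpinh1, the chaperone that binds only collagens, had 5383, 5613 and 5342 with rapamycin, against 5994, 6187 and 6291 with vehicle. The groups did not overlap, and the change was -0.18 (SE 0.05, limma adjusted p 0.0253). The Serpinh1 call was lost without rapamycin replicate 1 or 3 and without vehicle replicate 2 or 3 (limma adjusted p 0.0648 to 0.0972), and a second probe set had a change of -0.12 (limma adjusted p 0.115).

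Of the 4 measured lysyl oxidases, which form the aldehydes that cross-link collagen and elastin, Loxl1 was raised. It had 1620, 1827 and 1583 with rapamycin, against 1318, 1379 and 1431 with vehicle, without overlap and with a change of 0.28 (SE 0.06, limma adjusted p 0.00514). A second Loxl1 probe set had a change of 0.03 and was not called. Lox itself had 5868, 6451 and 5955 with rapamycin, against 5848, 5850 and 5546 with vehicle. Its groups were separate by a narrow gap, and the change was 0.08 (SE 0.06, limma adjusted p 0.356). Loxl3 and Loxl4 had changes of 0.16 and 0.04 and were not called.

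**Figure D4:**
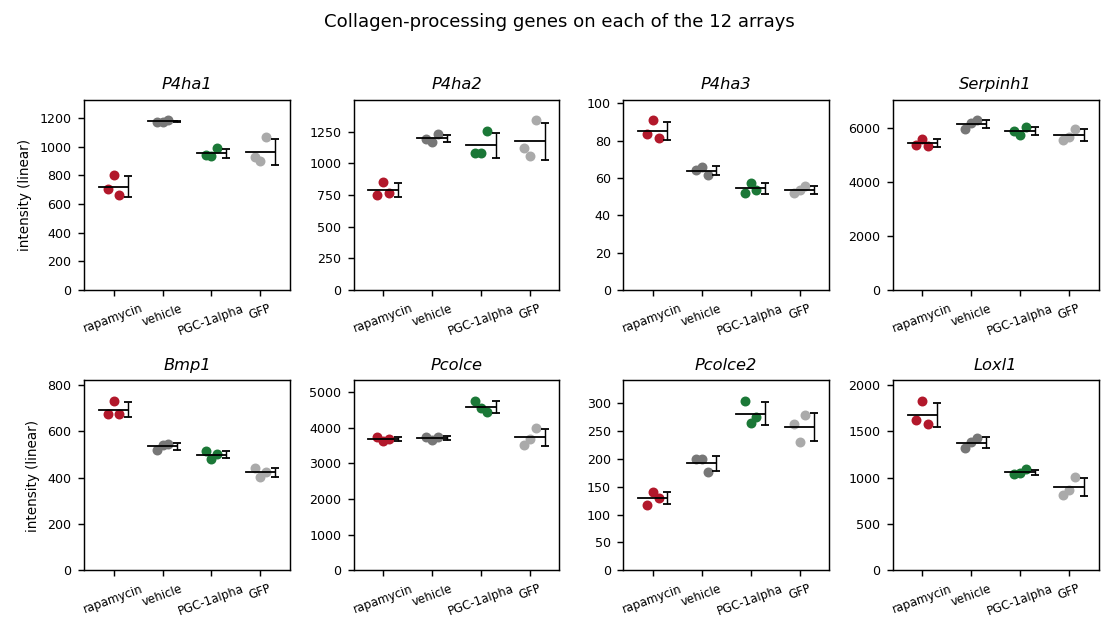
Intensity of 8 processing genes on each of the 12 arrays, in the order rapamycin, vehicle, PGC-1alpha and GFP, on linear axes from 0; lines are means and bars are SD of 3 arrays. P4ha1, P4ha2 and Pcolce2 lie lower with rapamycin than with vehicle, P4ha3, Bmp1 and Loxl1 lie higher, and Pcolce lies higher with PGC-1alpha than with GFP.

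Of the 37 members with several probe sets, 27 had all their probe sets in the same class of call with rapamycin, 6 of them all raised and 1 all lowered. Genes that work with collagens were counted in 6 further lists, whose genes are no members. For scale, 11.3% of all genes were raised and 18% were lowered. Of 14 measured glycoproteins and proteoglycans that bind collagen fibrils, 8 were raised (57.1%) and none was lowered, with a median log2 change of 0.19. They were led by Thbs1, a matricellular protein, at 0.64 (SE 0.07, limma adjusted p 1.49e-05), and Bgn, a small proteoglycan, at 0.50 (SE 0.06, limma adjusted p 2.79e-05). Of 14 measured basement membrane partners, 7 were raised (50%) and none was lowered, with a median of 0.18. Nid2, which links laminin to type IV collagen, changed by 0.53 (SE 0.06, limma adjusted p 4.69e-05), and the laminin chain Lama1 by 0.35 (SE 0.06, limma adjusted p 0.000632).

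TGF-beta signalling is the growth factor route best known for raising collagen in fibroblasts. Of 13 genes listed for it, 6 were raised (46.2%) and 1 was lowered (7.69%), with a median of 0.17. The raised ones were Ltbp2, Ltbp3, Tgfb3, Tgfbr1, Tgfbr2 and Smad7. These are RNA levels, and the activity of the route was not measured. Ltbp2 changed by 0.90 (SE 0.07, limma adjusted p 1.09e-06) and Ltbp3, which stores latent TGF-beta, by 0.60 (SE 0.05, limma adjusted p 3.61e-06). Smad2, which carries the signal to the nucleus, changed by -0.31 (SE 0.06, limma adjusted p 0.00124). Among 7 collagen receptors, 2 were raised (28.6%) and 1 was lowered (14.3%), where 11.3% and 18% of all genes were. Itga1 and Ddr1 were raised, by 0.53 (limma adjusted p 0.000104) and 0.43 (limma adjusted p 0.000158), and Ddr2 was lowered, with a change of -0.27 (limma adjusted p 0.0086).

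Of 12 partners in folding, export and trimming, 2 were raised (16.7%) and 1 was lowered (8.33%), with a median of 0.05. Sec23a, a coat protein of the vesicles that carry procollagen, had 1405, 1541 and 1486 with rapamycin, against 984, 1077 and 1019 with vehicle. That is a change of 0.53 (SE 0.06, limma adjusted p 2.14e-05) with no overlap. Fkbp14, a prolyl isomerase of the endoplasmic reticulum, changed by 0.29 (limma adjusted p 0.00285), and Creb3l1, a transcription factor of collagen-secreting cells, by -0.21 (limma adjusted p 0.0434). P4hb, the partner subunit of the P4ha proteins, had a change of -0.14 that missed the threshold (limma adjusted p 0.0886). Of 3 measured genes of proline synthesis and recycling, Aldh18a1, the first enzyme of proline synthesis, was lowered, with a log2 change of -0.45 (SE 0.08, limma adjusted p 0.000794).

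**Figure D5:**
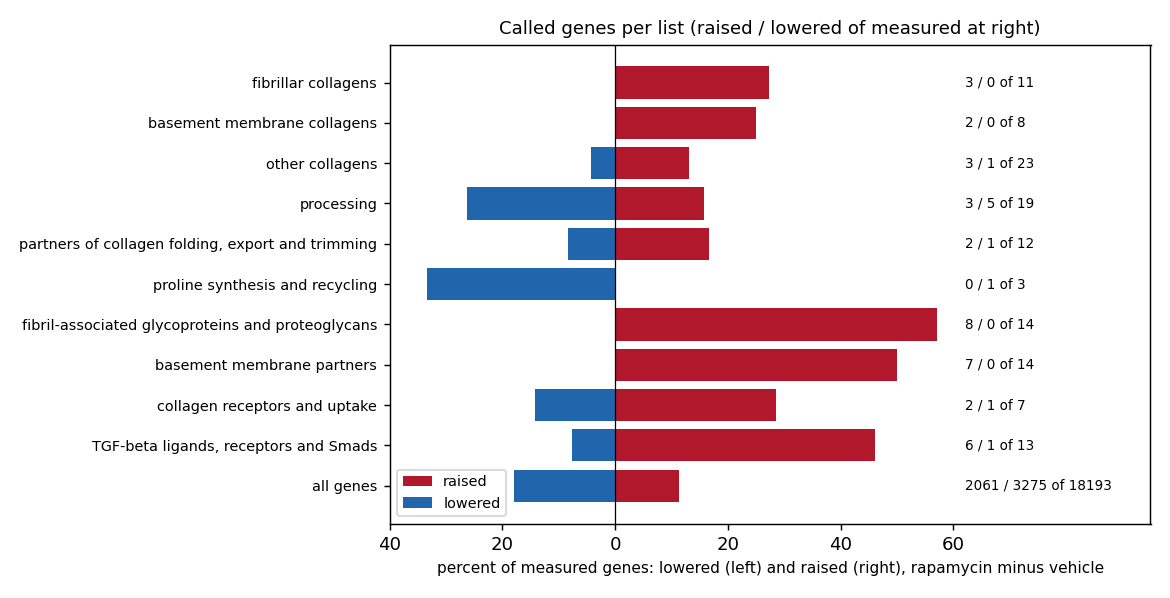
Percent of measured genes lowered (left of 0) and raised (right of 0) by rapamycin in the 4 member classes, the 6 partner lists and all genes, with the counts at the right. Fibrillar and basement membrane collagens, the fibril-associated glycoproteins and proteoglycans and the basement membrane partners have raised genes and no lowered ones. Each of the remaining partner lists has a lowered gene, and processing genes have 3 raised and 5 lowered.

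With PGC-1alpha, a single processing gene passed the test and no collagen did. Against GFP, 1 of the 61 members was raised, none was lowered and 60 were not called by limma, while over all genes 1.41% were raised and 0.594% were lowered. At an unadjusted p under 0.05 there were 11 of the 61 members, where 12.2% of all genes passed. The median log2 change was 0.03 over the members and 0.01 over all genes. All 3 PGC-1alpha arrays lay above all 3 GFP arrays in 13 members, where 10.1% of all genes did so, and below them in 2, where 5.72% of all genes did so. No gene of the 6 partner lists was called. The smallest limma adjusted p in each list was 0.0585 for the growth factor gene Tgfb1 (change 0.36), 0.15 for the laminin chain Lama5 (0.21), 0.191 for the prolyl isomerase Ppib (0.19), 0.325 for the collagen uptake receptor Mrc2 (0.17), 0.401 for the collagen-binding Sparc (0.13) and 0.6 for Pepd (0.11), which frees proline from peptides.

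The raised member was Pcolce, the enhancer of propeptide removal. It had intensities of 4757, 4569 and 4437 on PGC-1alpha arrays, against 3522, 3682 and 3981 on GFP arrays. The groups did not overlap, the log2 change was 0.30 (SE 0.06), or 1.23-fold, and the limma adjusted p was 0.0331. A second Pcolce probe set rose by 0.71 (limma adjusted p 0.00246). The call on the brighter probe set was lost when any array but GFP replicate 3 was left out (limma adjusted p 0.101 to 0.152) and was kept without that array (limma adjusted p 0.00504). It was also lost with spike scaling (limma adjusted p 0.1) and with the replicate number as a block (limma adjusted p 0.053). GFP replicate 3 was the highest GFP array for Pcolce, Crtap, Loxl1, Col4a2 and Col1a1. Without it 6 members were raised, namely Pcolce, Bmp1, Col13a1, Col4a2, Crtap and Loxl1. The share of all genes raised without that array was not counted.

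With all arrays, those 5 further genes missed the threshold. Bmp1 had 516, 483 and 502 with PGC-1alpha, against 442, 404 and 426 with GFP (change 0.24, SE 0.06, limma adjusted p 0.0725). Crtap had 1174, 1104 and 1158 with PGC-1alpha, against 902, 945 and 1060 with GFP (change 0.24, SE 0.07, limma adjusted p 0.112). Loxl1 had 1039, 1049 and 1087 with PGC-1alpha, against 818, 867 and 1002 with GFP (change 0.25, SE 0.07, limma adjusted p 0.144). In these 3 processing genes the PGC-1alpha arrays were all higher than the GFP arrays. Col13a1, a transmembrane collagen, had 59.0, 55.1 and 53.1 with PGC-1alpha, against 48.1, 46.7 and 47.3 with GFP (change 0.23, SE 0.06, limma adjusted p 0.0793). Col4a2 had 963, 883 and 889 with PGC-1alpha, against 717, 745 and 874 with GFP (change 0.23, SE 0.08, limma adjusted p 0.202). Both were again without overlap.

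The main fibril chains did not pass the test with PGC-1alpha. Col1a1 had 11202, 11407 and 11426 with PGC-1alpha, against 9299, 10258 and 10952 with GFP, separate groups with a change of 0.16 (SE 0.07, limma adjusted p 0.351). Col1a2 had 7699, 7668 and 7601 with PGC-1alpha, against 7019, 6891 and 7511 with GFP, also separate, with a change of 0.10 (SE 0.06, limma adjusted p 0.576). Col3a1 had 8702, 8769 and 8676 with PGC-1alpha, against 8503, 8703 and 8985 with GFP. Its groups overlapped and its change was near 0, with an SE of 0.06 and a limma adjusted p of 0.995. Col11a1, the most raised collagen with rapamycin, had 470, 447 and 397 with PGC-1alpha, against 467, 475 and 530 with GFP, overlapping groups with a change of -0.17 (SE 0.08, limma adjusted p 0.422).

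Col4a1, Serpinh1 and Lox had small changes with PGC-1alpha. Col4a1 had 2943, 2660 and 2687 with PGC-1alpha, against 2624, 2881 and 2919 with GFP (change -0.02, SE 0.07, limma adjusted p 0.952). Serpinh1 had 5912, 5747 and 6064 with PGC-1alpha, against 5575, 5674 and 5992 with GFP (change 0.04, SE 0.06, limma adjusted p 0.892). Lox had 4399, 4396 and 4653 with PGC-1alpha, against 4413, 4392 and 4851 with GFP (change -0.02, SE 0.06, limma adjusted p 0.952). These 3 pairs of groups overlapped.

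The remaining genes of smallest p, among the first 2 of their classes, were as follows. Col6a2 had 1482, 1395 and 1573 with PGC-1alpha, against 1726, 1541 and 1697 with GFP (change -0.16, SE 0.07, limma adjusted p 0.375). Col8a1 had 543, 467 and 483 with PGC-1alpha, against 426, 408 and 493 with GFP (change 0.17, SE 0.08, limma adjusted p 0.446). Both of these network collagens had overlapping groups. Col4a6 had 691, 653 and 703 with PGC-1alpha, against 593, 644 and 644 with GFP (change 0.12, SE 0.06, limma adjusted p 0.486). Col23a1 had 73.7, 65.6 and 70.3 with PGC-1alpha, against 60.8, 63.2 and 58.7 with GFP (change 0.20, SE 0.06, limma adjusted p 0.18). P3h3, a prolyl 3-hydroxylase, had 94.1, 94.0 and 96.0 with PGC-1alpha, against 89.6, 77.7 and 90.3 with GFP (change 0.14, SE 0.07, limma adjusted p 0.44). In these 3 genes the PGC-1alpha arrays were all higher. The fibril-associated gene Col14a1 had 42.8, 46.6 and 46.4 with PGC-1alpha, against 52.7, 48.8 and 48.2 with GFP, all lower (change -0.14, SE 0.06, limma adjusted p 0.409). Col19a1 had 53.6, 49.8 and 55.2 with PGC-1alpha, against 46.5, 49.4 and 51.1 with GFP, overlapping groups with a change of 0.11 (SE 0.06, limma adjusted p 0.583).

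The change with rapamycin was tested against the change with PGC-1alpha in a limma fit over all 12 arrays, as rapamycin minus vehicle less PGC-1alpha minus GFP. The rapamycin change was higher in 5 members and lower in 9, while over all genes it was higher in 7.59% and lower in 16.5%. The 5 were Col11a1, Col4a5, Col5a1, Col6a2 and P4ha3. With spike scaling, which moved the median difference of all probe sets to -0.35, Col11a1 alone stayed among the higher ones, the calls of Col4a5, Col5a1, Col6a2 and P4ha3 were lost, and 20 members were lower. The largest difference was that of Col11a1, at 0.86 (SE 0.10, limma adjusted p 7.32e-06), from a change of 0.69 with rapamycin and -0.17 with PGC-1alpha. Col6a2 differed by 0.57 (SE 0.09, limma adjusted p 7.55e-05), Col4a5 by 0.42 (SE 0.09, limma adjusted p 0.0013) and P4ha3 by 0.39 (SE 0.09, limma adjusted p 0.00216).

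Among the 9 with the lower rapamycin change, P4ha1 and Pcolce2 differed most, each by -0.70 (limma adjusted p 5e-05 for P4ha1 and 0.000142 for Pcolce2). Col6a3 followed at -0.59 (SE 0.09, limma adjusted p 5.99e-05) and P4ha2 at -0.57 (SE 0.11, limma adjusted p 0.00112). P4ha1 had 939, 932 and 987 with PGC-1alpha, against 928, 898 and 1065 with GFP, and P4ha2 had 1085, 1080 and 1258 with PGC-1alpha, against 1123, 1054 and 1337 with GFP. For both subunits these groups overlapped. Pcolce differed by -0.31 (limma adjusted p 0.00741), Col23a1 by -0.31 (limma adjusted p 0.0175), P3h2 by -0.25 (limma adjusted p 0.0473), Plod3 by -0.24 (limma adjusted p 0.0368) and Serpinh1 by -0.22 (limma adjusted p 0.0496). The calls of these last 3 were weak: of 12 fits that each left out 1 array, P3h2 lost its call in 10 (all but those without vehicle replicate 1 or rapamycin replicate 3), Serpinh1 in 10 (all but those without rapamycin replicate 2 or GFP replicate 3) and Plod3 in 8 (all but those without vehicle replicate 2, rapamycin replicate 2, GFP replicate 3 or PGC-1alpha replicate 3). Col23a1 lost its call in 2, those without vehicle replicate 2 or PGC-1alpha replicate 1. With the replicate block the calls of Plod3 and Serpinh1 were lost. The difference was not called for Bmp1 (0.13, limma adjusted p 0.295) or Loxl1 (0.04, limma adjusted p 0.865).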

How the data were processed

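RNA of 12 cultures was hybridised to Affymetrix MOE430 v2 arrays. Per the series' design text, the authors processed the arrays with RMA in BioConductor 1.2, in 1 batch for rapamycin with vehicle and another for PGC-1alpha with GFP. The deposited intensity values ran from 9.299 to 21072.4 and were read as a linear scale. Genome build and annotation are not given in the sources used here. log2 of the deposited intensities was tested with limma 3.58.1 in R 4.3.3 (lmFit and eBayes, two-sided, Benjamini-Hochberg over 45037 probe sets after 64 control probe sets were left out). Fits used the 6 arrays of each comparison, and all 12 for the difference between the changes. The fits were also tested on simulated data. A gene is represented by the brightest of its probe sets (average log2 intensity of all 12 arrays) among those with a single symbol (34945 probe sets, 18193 genes). The number of arrays limits the precision.

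The members and gene lists were chosen with earlier results of these data known. Full values were given, per class and comparison, to the 4 called members with the largest change and the largest opposite one, to 2 with the smallest p where none passed, and always to Col1a1, Col1a2, Col3a1, Col4a1, Col4a2, Serpinh1 and Lox; partner lists used 2 in place of 4, mostly with the change in place of the array values, and other members were named after their values were seen. Of the genes listed, 10 partners and 3 markers had no single-symbol probe set and were not analysed here. The same held for Loxl2, Col6a6 and Col28a1. Levels of different probe sets were not compared, nor levels across the batches. Promoter windows and gene neighbours came from RefSeq tables of build GRCm38.p6, matched by symbol. All 61 members were found in the gene table by gene identifier, and 45 had a promoter window. Alternatives were an offset, a low-value filter, other probe set rules, quantile normalization, spike scaling, an intensity trend, a fit over all arrays, a replicate block and leaving out each array.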

Additional observations from a re-analysis of the deposited data

How the results depend on the processing

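Relative to 11 members raised and 6 lowered by rapamycin, quantile normalization over 12 arrays gave 16 and 5, the mean of all probe sets 15 and 7, and spike scaling 5 and 18. Leaving out an array gave 11 to 14 raised and 4 to 6 lowered. Shares of all genes called were not counted under these other settings. No called member was called in the opposite direction under any of these settings, and the Col5a1 change turned to -0.044, not called, with the mean of its probe sets. The median change of the members was 0.083 with the low-value filter, -0.14 with spike scaling and 0.038 to 0.062 with an array left out. For PGC-1alpha, 2 members were raised with quantile normalization, 0 with spike scaling, 3 in a fit over 12 arrays and 0 to 6 with an array left out, and the median was 0.20 with spike scaling and 0.017 to 0.045 with an array left out. The members whose rapamycin change was the higher numbered 12 with quantile normalization, 1 with spike scaling and 5 to 8 with an array left out, and those where it was the lower 20 with spike scaling and 5 to 10 with an array left out. With the low-value filter Col23a1 and P4ha3, too dim to be tested there, dropped out of that comparison. The cause was not tested. The deviations of same-numbered arrays from their group means had correlations of -0.05, 0.07 and 0.005 for rapamycin with vehicle. For PGC-1alpha with GFP they were -0.13, 0.23 and -0.01. Unlike-numbered arrays ran from -0.14 to 0.149 in the first comparison and from -0.216 to 0.206 in the second. With 3 arrays per group these values cannot tell whether the numbers pair the samples. With the replicate number as a block, 11 members were raised and 6 lowered by rapamycin, 0 were raised by PGC-1alpha, and the rapamycin change was higher in 6 and lower in 7. Signal near the array background limits the 12 members with a mean log2 value under 6 on the rapamycin and vehicle arrays.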
